A study of Mus musculus with 8 samples.

Results

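The transcripts described here are those of the collagen chains, the 44 genes of the 36255 in the deposited count table whose symbol is Col, a number, a and a number. They were chosen by symbol alone and sorted into 11 fibrillar chains, 6 basement membrane chains (Col4a1 to Col4a6) and 27 other chains. RNA selected on poly(A) beads came from mouse cells labelled as knockout (KO) for Skp1a or as carrying the floxed, undeleted gene (fl/fl). Skp1a encodes the adaptor that joins F-box proteins to CUL1 in SCF ubiquitin ligases. The 4 groups were KO embryoid bodies at day 2 (KO EBd2), fl/fl embryoid bodies at day 2 (fl/fl EBd2), KO embryonic stem cells (KO ES cells) and fl/fl embryonic stem cells (fl/fl ES cells), with 2 libraries each, numbered as lots in the titles. Embryoid bodies are clumps of ES cells grown in suspension to let differentiation start. The labels give neither the Cre or other agent that made the deletion nor the number of clones, the strain or whether feeder cells were used, and they describe the medium only as standard.

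Collagens are triple helices of 3 chains, and the chains a cell makes decide which trimer it can build. Fibrillar collagens such as types I, III and V are secreted by fibroblasts and other mesenchymal cells and assemble into banded fibrils, whereas type IV forms the sheet-like network of basement membranes. In the early mouse embryo and in embryoid bodies, extraembryonic endoderm is a known source of type IV collagen, and its parietal layer lays down Reichert's membrane. ES cells are often grown on embryonic fibroblasts, which make fibrillar collagen.

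The group labels were checked first. Skp1a transcripts were present in every library, with 286 and 289.6 CPM in KO EBd2 against 401 and 389 CPM in fl/fl EBd2, while KO ES cells held 369 and 361 CPM against 420.2 and 430.3 CPM for fl/fl ES cells. They were lower in the KO libraries at both stages, with a log2 fold change of -0.46 ± 0.04 in EBd2 (adjusted p = 5.13e-07) and -0.22 ± 0.03 in ES cells (adjusted p = 7.30e-04), so most of the transcript remained. The part of the gene that was deleted is not given, and the direction of every KO comparison rests on the titles. The tissue field disagrees with the titles, since it names KO libraries of both stages ES cells and those of fl/fl embryoid bodies. Fgf5, an epiblast gene that comes on as ES cells leave the naive state, was below 1 CPM in all 4 ES libraries and at 20.1 and 20.5 CPM in KO EBd2 and 57.1 and 54.2 CPM in fl/fl EBd2, the order of stages that the titles give. Total counts were 7858452 to 10055667 in EBd2 libraries and 21545868 to 23343471 in ES libraries, so that low chains were measured less precisely in EBd2.

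Levels are given as CPM, read counts made comparable between libraries by TMM scaling. Differences are log2 fold changes ± standard error from edgeR's quasi-likelihood test over 16542 genes. A gene is called where its p, adjusted over all of them by Benjamini and Hochberg, is under 0.05. Of the 44 chains, 40 passed the filter on low counts: all 11 fibrillar chains, 4 of 6 basement membrane chains and 25 of 27 other chains. Col4a3, Col4a4, Col6a6 and Col19a1 did not. Of those that passed, Col6a4, Col9a1, Col24a1 and Col25a1 did so only through their counts in KO EBd2. The filter thus favoured a rise of these chains in KO EBd2, which is no free test of them. Each group had 2 libraries and nothing says that they came from separate cultures, so p-values reflect how far paired libraries of a group differ, and that scatter may be technical only.

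In day 2 embryoid bodies most collagen chains were higher in KO than in fl/fl. Of the 40 chains tested, 28 rose and 2 fell in KO EBd2, against 30.7% of all genes higher and 31.5% lower (62.2% called in either direction). The median log2 fold change of the chains was 1.77, and that of all genes was 0.00. All 11 fibrillar chains rose, as did 3 of the 4 basement membrane chains tested and 14 of the 25 other chains. These counts include Col24a1 and Col6a4, which passed the filter on low counts only through KO EBd2. The 2 that fell were Col18a1 and Col9a2. In ES cells no called chain differed between KO and fl/fl by more than 1.06 on the log2 scale. The chains were chosen as a topic with earlier results of these data known, so these counts describe the chains and are not independent evidence.

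Summed over its chains, each class had its own course, which not every chain in it followed. Basement membrane chains came to 1919.7 ± 32.8 CPM in KO EBd2, 374 ± 8.998 in fl/fl EBd2, 304 ± 10.6 in KO ES cells and 278 ± 4.79 in fl/fl ES cells (SD, n = 2 each). Nearly all of this was Col4a1 and Col4a2, which came to 1914, 371, 290 and 266 CPM in these groups. Fibrillar chains came to 256 ± 7.12, 66.9 ± 1.85, 716 ± 43.8 and 611 ± 23.4 CPM in the same groups. Other chains stayed between 662 and 778 CPM in all 8 libraries, but this sum was mostly Col18a1. Col18a1 held a mean of 537 CPM in KO EBd2, 641 in fl/fl EBd2, 456 in KO ES cells and 423 in fl/fl ES cells. Of the 25 other chains tested, 13 fell from ES cells to EBd2 in fl/fl and 5 rose. Of all genes 30.1% were lower there and 28.9% higher (59.0% in all). Basement membrane chains thus made up 65.8% of collagen CPM in KO EBd2, 32.8% in fl/fl EBd2, 17.2% in KO ES cells and 17.9% in fl/fl ES cells. The fibrillar share was 8.78% in KO EBd2, 5.86% in fl/fl EBd2, 40.3% in KO ES cells and 39.3% in fl/fl ES cells. These are bulk samples, in which fewer cells of a type and less RNA per cell cannot be told apart.

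**Figure D1:**
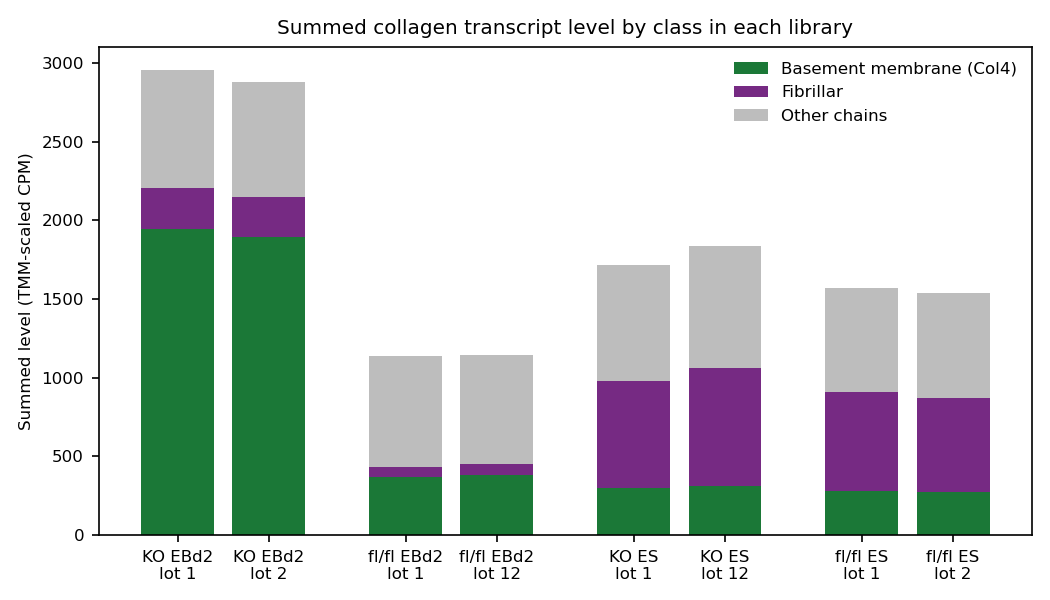
Summed level of basement membrane, fibrillar and other collagen chains in each of the 8 libraries, as stacked bars in TMM-scaled CPM on an axis from 0. The basement membrane part stands at 1897 to 1943 CPM in the KO EBd2 libraries and no higher than 380.4 CPM in the other 6 libraries, and the fibrillar part is tallest in ES cells.

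Among the basement membrane chains, Col4a1 and Col4a2, whose products join as 2 chains of the first and 1 of the second in the common type IV trimer, had the highest levels in embryoid bodies. Their genes lie head to head on mouse chromosome 8, on opposite strands, and by the annotated starts they overlap by 22 bases, which are shown because this shared start is common to the most abundant pair of chains that moved together. The sequence is from RefSeq, build GRCm38.p6, at chr8:11312805-11312826 on the plus strand, with the GC box GGGCGG in capitals.
Col4a1-Col4a2 overlap of starts: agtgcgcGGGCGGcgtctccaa

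Col4a1 was at 1309 and 1279.8 CPM in KO EBd2 and 242 and 248 CPM in fl/fl EBd2. In ES cells it was at 176 and 180.1 CPM with the KO label and 164 and 164 CPM with the fl/fl label. Both KO EBd2 libraries stood far above the other 6, and no groups overlapped. The rise in KO EBd2 over fl/fl EBd2 was 5.28-fold (log2 2.40 ± 0.03, adjusted p = 1.10e-11). Col4a2 was at 629 and 611 CPM in KO EBd2 and 122 and 130.3 CPM in fl/fl EBd2, and at 107 and 117 CPM in KO ES cells and 105 and 98.8 CPM in fl/fl ES cells. It rose 4.91-fold in KO EBd2 (log2 2.30 ± 0.05, adjusted p = 8.70e-11), close to its partner. From ES cells to EBd2 both chains rose in each genotype, with log2 changes of 2.86 ± 0.03 and 2.47 ± 0.05 in KO and 0.58 ± 0.04 and 0.30 ± 0.06 in fl/fl for Col4a1 and Col4a2.

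Per kilobase of exon, Col4a1 stood above Col4a2 in every library. Lengths here pool the exons of all annotated transcripts of a gene. The size of such a ratio depends on them, whereas its change between libraries does not. The ratio was 1.85 and 1.86 in KO EBd2, 1.77 and 1.69 in fl/fl EBd2, 1.46 and 1.37 in KO ES cells and 1.38 and 1.47 in fl/fl ES cells. All 4 EBd2 libraries were thus above all 4 ES libraries. The 22 shared bases are under 1% of either gene's exons, and the strand setting of the counting is not given.

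Col4a5, a chain of the type IV trimers of kidney and lung basement membranes, took another course. It was at 3.72 and 4.83 CPM in KO EBd2 and 1.48 and 2.08 CPM in fl/fl EBd2, and at 13.5 and 13.8 CPM in KO ES cells and 11.1 and 11.2 CPM in fl/fl ES cells. Its level was highest in ES cells, and although it was higher in KO EBd2 than in fl/fl EBd2 (log2 1.25 ± 0.24, adjusted p = 7.13e-04), it fell from ES cells to EBd2 in both genotypes (log2 -1.66 ± 0.13 in KO and -2.63 ± 0.18 in fl/fl). Its neighbour Col4a6, which starts 1308 bases away on the X chromosome, stayed under 1.5 CPM in all libraries and was called in no comparison. Col4a3 and Col4a4, which start 71 bases apart on chromosome 1, had at most 8 counts over the 2 libraries of any EBd2 group.

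All 11 fibrillar chains were higher in KO EBd2 than in fl/fl EBd2, among them Col24a1, which passed the filter only through KO EBd2. Col1a1, Col1a2, Col3a1, Col5a1 and Col5a2 had their highest means in ES cells of both genotypes, whereas Col2a1, Col11a1, Col11a2, Col24a1 and Col27a1 had theirs in KO EBd2. Col1a1, the main chain of type I collagen, was at 65.3 and 57.6 CPM in KO EBd2 and 9.72 and 10.5 CPM in fl/fl EBd2. Its ES levels were 298 and 339 CPM in KO and 309 and 283 CPM in fl/fl. The ES groups overlapped, and the EBd2 groups were well apart: KO EBd2 was 6.04-fold higher (log2 2.60 ± 0.15, adjusted p = 5.87e-08). Against ES cells Col1a1 fell in both genotypes, by 2.38 on the log2 scale in KO and by 4.87 in fl/fl.

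Col1a2, its partner in the type I trimer, was at 36.4 and 34.2 CPM in KO EBd2 and 5.40 and 5.08 CPM in fl/fl EBd2, and at 149.9 and 169 CPM in KO ES cells and 137 and 133 CPM in fl/fl ES cells. It rose in KO EBd2 by a log2 of 2.75 ± 0.15 (adjusted p = 3.74e-08). The pooled exon lengths, on which the size of their ratio rests, were 6563 bases for Col1a1 and 12426 for Col1a2. Per kilobase, the ratio of Col1a1 to Col1a2 was 3.40 and 3.19 in KO EBd2 and 3.41 and 3.92 in fl/fl EBd2. In ES cells it was 3.77 and 3.79 in KO and 4.26 and 4.03 in fl/fl. The pair therefore kept a similar ratio while its level changed by more than an order of magnitude between fl/fl groups.

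Col3a1, which forms the homotrimer of type III collagen, had the largest rise of any fibrillar chain. It was at 22.7 and 16.8 CPM in KO EBd2 and 1.48 and 1.38 CPM in fl/fl EBd2, and at 32.6 and 31.4 CPM in KO ES cells and 26.2 and 26.7 CPM in fl/fl ES cells. The KO EBd2 libraries were 13.7-fold higher than the fl/fl EBd2 libraries (log2 3.77 ± 0.23, adjusted p = 7.48e-08). The 250 bases before its RefSeq start are shown, since no other fibrillar chain moved as much; they lie at chr1:45311288-45311537 on the plus strand, and a TATAAA match 117 bases before the start is in capitals.
Col3a1 upstream: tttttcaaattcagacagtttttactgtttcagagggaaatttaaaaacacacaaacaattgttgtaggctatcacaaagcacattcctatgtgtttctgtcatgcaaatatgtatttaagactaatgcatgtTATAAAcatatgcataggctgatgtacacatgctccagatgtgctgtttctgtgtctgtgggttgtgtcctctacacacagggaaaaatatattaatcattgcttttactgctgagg

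This stretch held no GC box (GGGCGG), no CCAAT box and no GATA motif (GATAA) on either strand. In the 250 bases before the start of 32851 RefSeq promoters, read on both strands, TATAAA was found in 12.4%, GGGCGG in 32.7%, CCAAT in 33.8% and GATAA in 22.6%. Of the 44 chains 35 had a RefSeq promoter, with 38 windows among them, of which 5 held TATAAA, 22 GGGCGG, 13 CCAAT and 6 GATAA. These matches describe letters in a window and not bound sites.

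Type V collagen, which regulates the diameter of type I fibrils, is built from Col5a1, Col5a2 and Col5a3. Col5a1 was at 45.0 and 47.2 CPM in KO EBd2 and 12.01 and 12.2 CPM in fl/fl EBd2, and at 96.8 and 101 CPM in KO ES cells and 87.9 and 82.5 CPM in fl/fl ES cells. Col5a2 was at 7.35 and 7.96 CPM in KO EBd2 and 1.08 and 1.04 CPM in fl/fl EBd2, and at 25.4 and 26.2 CPM in KO ES cells and 22.5 and 24.2 CPM in fl/fl ES cells. Both were highest in ES cells and lowest in fl/fl EBd2. In KO EBd2 Col5a1 rose by a log2 of 1.93 ± 0.09 (adjusted p = 9.41e-09) and Col5a2 by 2.85 ± 0.21 (adjusted p = 3.82e-07). The 2 partners did not keep a fixed ratio: per kilobase Col5a1 exceeded Col5a2 6.91 and 6.70 times in KO EBd2, 12.6 and 13.3 in fl/fl EBd2, 4.31 and 4.35 in KO ES cells and 4.42 and 3.85 in fl/fl ES cells. Col5a3 was at 27.04 and 25.6 CPM in KO EBd2 and 8.64 and 7.50 CPM in fl/fl EBd2, and at 41.7 and 41.7 CPM in KO ES cells and 18.3 and 21.7 CPM in fl/fl ES cells, and was higher in KO at both stages (log2 1.71 ± 0.13 in EBd2 and 1.06 ± 0.08 in ES cells).

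The cartilage-type fibrillar chains differed from those of types I, III and V. Col2a1, the type II chain, was at 25.6 and 23.97 CPM in KO EBd2 and 16.3 and 18.1 CPM in fl/fl EBd2, and at 21.9 and 21.6 CPM in KO ES cells and 12.1 and 11.8 CPM in fl/fl ES cells. Its levels were of one order in all groups, and it was higher in KO both in EBd2 (log2 0.52 ± 0.09, adjusted p = 4.64e-04) and in ES cells (log2 0.86 ± 0.08, adjusted p = 4.35e-05). Col11a1, a partner chain of type XI collagen in cartilage, was at 12.9 and 12.4 CPM in KO EBd2 and 5.53 and 3.92 CPM in fl/fl EBd2, and at 8.52 and 9.04 CPM in KO ES cells and 8.04 and 6.40 CPM in fl/fl ES cells; its rise in KO EBd2 was 1.44 ± 0.18. Its partner Col11a2 was lower, between 0.405 and 3.67 CPM in all libraries, and rose by 1.76 ± 0.44 in KO EBd2. Col27a1, a fibrillar chain found in cartilage, was highest in KO EBd2, at 14.6 and 19.6 CPM, against 4.05 and 6.81 CPM in fl/fl EBd2, and stood at 6.33 and 5.61 CPM in KO ES cells and 3.73 and 3.22 CPM in fl/fl ES cells. It rose by 1.64 ± 0.22 in KO EBd2 (adjusted p = 4.80e-05).

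**Figure D2:**
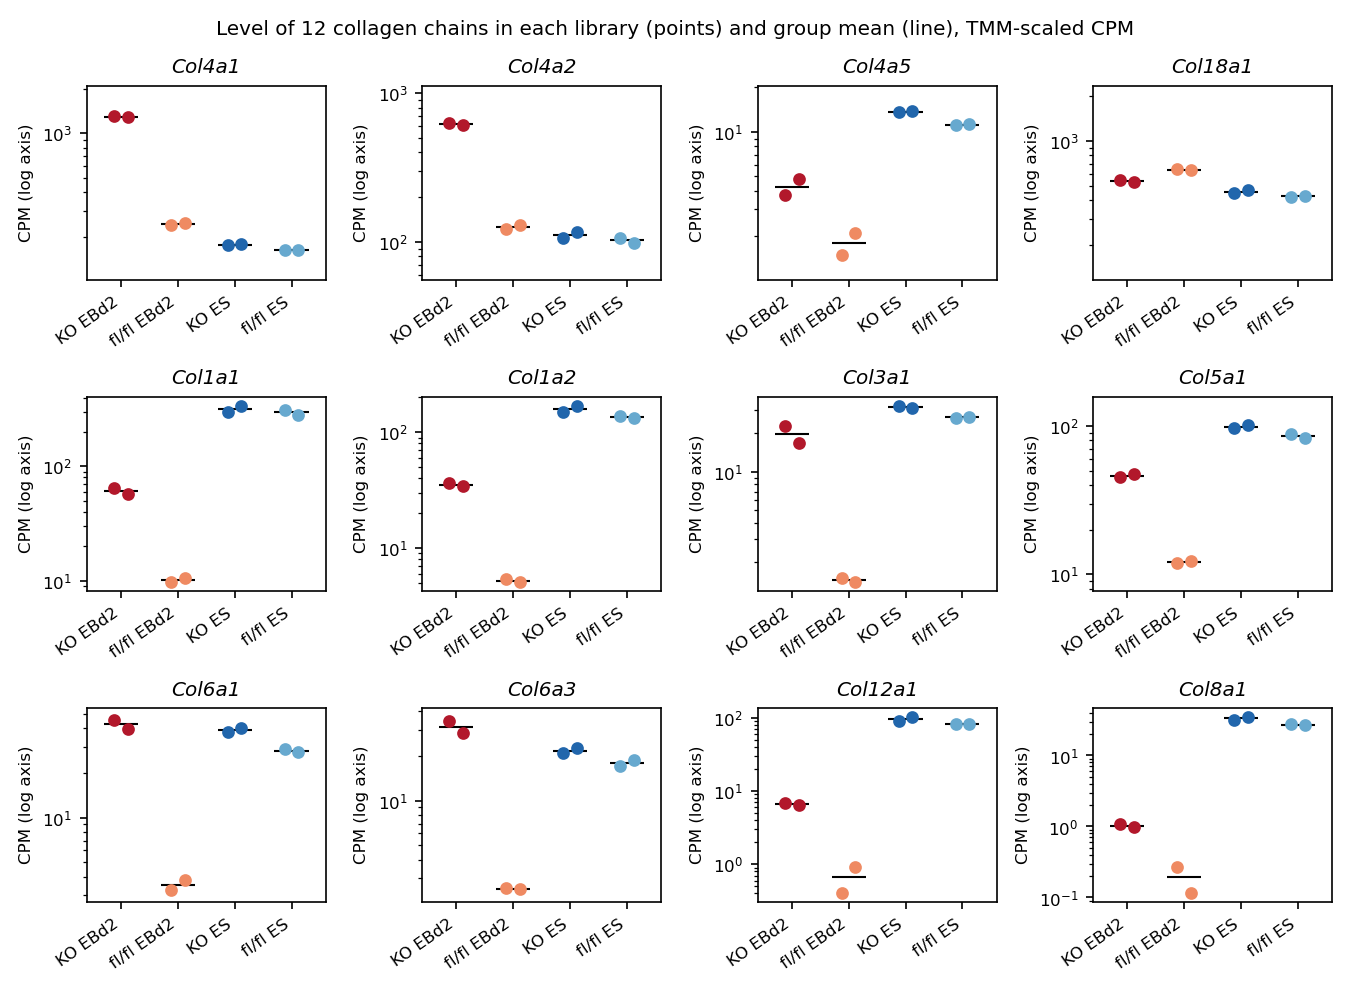
Level of 12 collagen chains in TMM-scaled CPM on log axes, each panel with its own range, with 1 point for each library and a line at the mean of the 2 libraries of a group. Col4a1 and Col4a2 stand highest in KO EBd2, while Col1a1, Col1a2, Col3a1, Col5a1, Col12a1 and Col8a1 stand highest in ES cells and lowest in fl/fl EBd2.

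Of the other chains, the 3 main chains of type VI collagen, a beaded filament collagen of most connective tissues, all rose in KO EBd2. Col6a1 was at 45.7 and 39.8 CPM in KO EBd2 and 3.24 and 3.81 CPM in fl/fl EBd2, and at 37.6 and 40.0 CPM in KO ES cells and 29.1 and 27.5 CPM in fl/fl ES cells. Col6a3 was at 34.4 and 28.4 CPM in KO EBd2 and 2.56 and 2.54 CPM in fl/fl EBd2, and at 20.8 and 22.7 CPM in KO ES cells and 17.02 and 18.7 CPM in fl/fl ES cells. For both, fl/fl EBd2 was low and the other 3 groups were high. The rise in KO EBd2 was 3.59 ± 0.14 for Col6a1 and 3.62 ± 0.17 for Col6a3 on the log2 scale. Col6a2 was at 32.1 and 26.8 CPM in KO EBd2 and 5.26 and 4.96 CPM in fl/fl EBd2, and at 23.1 and 23.5 CPM in KO ES cells and 14.3 and 15.7 CPM in fl/fl ES cells, with a rise of 2.53 ± 0.14. Per kilobase, the ratio of Col6a1 to Col6a2 was 2.70 and 2.82 in KO EBd2 and 1.17 and 1.46 in fl/fl EBd2. In ES cells it was 3.09 and 3.24 in KO and 3.87 and 3.32 in fl/fl. Its size rests on pooled exon lengths of 4380 bases for Col6a1 and 8326 for Col6a2. In fl/fl EBd2 Col6a2 had the higher CPM. Col6a4, among the chains under 5 CPM the one with the largest rise in KO EBd2 (3.16 ± 0.52), was at 2.55 and 3.13 CPM in KO EBd2 and 0.270 and 0.346 CPM in fl/fl EBd2. It passed the filter on low counts only through the KO EBd2 libraries, so such a rise was favoured in advance.

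Col12a1 and Col8a1 had the largest falls from ES cells to EBd2 among all chains. Col12a1, a fibril-associated chain of type XII collagen, was at 6.76 and 6.35 CPM in KO EBd2 and 0.405 and 0.923 CPM in fl/fl EBd2, and at 89.0 and 103 CPM in KO ES cells and 81.2 and 83.1 CPM in fl/fl ES cells. Col8a1, a short-chain network collagen, was at 1.08 and 0.984 CPM in KO EBd2 and 0.270 and 0.115 CPM in fl/fl EBd2, and at 31.7 and 35.04 CPM in KO ES cells and 27.8 and 26.5 CPM in fl/fl ES cells. Both were far higher in ES cells than in EBd2, and in EBd2 they were higher in KO. The EBd2 level of Col12a1 was 6.84% of its ES level in KO and 0.808% in fl/fl, and that of Col8a1 was 3.09% in KO and 0.710% in fl/fl. Col8a1 had 22 counts over both KO EBd2 libraries and 3 over both fl/fl EBd2 libraries, a ratio of 5.51 with an exact 95% interval, for counting error only, of 1.66 to 28.8. Without lot 12 of fl/fl EBd2 its adjusted p was 0.0568, against 0.00295 with it.

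The 250 bases before the RefSeq start of Col8a1 are shown as those of the chain that fell most, at chr16:57754738-57754987 on the minus strand, written in the direction of the gene. Its 4 matches to the GC box, read here as CCGCCC on the opposite strand, are in capitals, and none of the other 3 motifs named above was found on either strand.
Col8a1 upstream: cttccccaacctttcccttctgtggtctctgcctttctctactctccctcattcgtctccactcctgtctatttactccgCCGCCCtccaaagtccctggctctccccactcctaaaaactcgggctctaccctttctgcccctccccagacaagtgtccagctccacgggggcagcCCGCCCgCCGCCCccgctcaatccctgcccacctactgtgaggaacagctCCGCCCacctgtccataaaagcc

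Col18a1, a basement membrane proteoglycan collagen whose C-terminal fragment is endostatin, was the exception among abundant chains. It was at 547 and 528 CPM in KO EBd2 and 646 and 636 CPM in fl/fl EBd2, and at 445 and 466 CPM in KO ES cells and 421 and 425 CPM in fl/fl ES cells. It was lower in KO EBd2 than in fl/fl EBd2, by 0.25 on the log2 scale (standard error 0.04, adjusted p = 8.17e-05). Its EBd2 mean was 118% of its ES mean in KO and 151% in fl/fl. Per kilobase of exon it was the highest of all chains in fl/fl EBd2 (91.3 ± 1.01 CPM per kilobase), in KO ES cells (64.9 ± 2.09) and in fl/fl ES cells (60.2 ± 0.458), whereas Col4a1 was the highest in KO EBd2 (173 ± 2.78), with Col18a1 at 76.5 ± 1.88 (SD, n = 2). Col1a1 came second per kilobase in ES cells of both genotypes, at 48.5 ± 4.35 in KO and 45.1 ± 2.82 in fl/fl. The fall of Col18a1, and that of Col9a2, were not called when libraries were scaled by their size alone (adjusted p = 0.529 and 0.103).

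Col9a2, a fibril-associated chain of cartilage, was at 9.99 and 9.48 CPM in KO EBd2 and 13.5 and 13.6 CPM in fl/fl EBd2, and at 16.1 and 17.7 CPM in KO ES cells and 14.8 and 16.7 CPM in fl/fl ES cells. It fell by 0.48 in KO EBd2 (standard error 0.13, adjusted p = 0.00611). Its partner Col9a3 was at 4.70 and 5.01 CPM in KO EBd2 and 5.40 and 5.08 CPM in fl/fl EBd2, and at 3.52 and 4.17 CPM in KO ES cells and 3.95 and 3.18 CPM in fl/fl ES cells, with a difference in EBd2 of -0.11 ± 0.20 that was not called; 6.07% of its exon bases overlap Tcfl5 on the opposite strand. The third partner, Col9a1, had 19 counts over the KO EBd2 libraries and 3 over the fl/fl EBd2 libraries, and 1 and 0 in KO and fl/fl ES cells.

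The 5 remaining chains that reach 5 CPM also rose in KO EBd2. Col15a1, a relative of Col18a1 in the basement membrane zone, was at 5.58 and 5.46 CPM in KO EBd2 and 0.810 and 0.577 CPM in fl/fl EBd2, with 5.44 and 5.75 CPM in KO ES cells and 4.49 and 5.86 CPM in fl/fl ES cells. Col17a1, a transmembrane collagen of epithelial hemidesmosomes, was at 5.10 and 6.08 CPM in KO EBd2 and 0.810 and 0.692 CPM in fl/fl EBd2, with 5.04 and 5.14 CPM in KO ES cells and 3.68 and 3.76 CPM in fl/fl ES cells. Col16a1, a fibril-associated chain, was at 9.504 and 9.03 CPM in KO EBd2 and 1.21 and 1.38 CPM in fl/fl EBd2, with 12.4 and 12.003 CPM in KO ES cells and 9.61 and 8.06 CPM in fl/fl ES cells. For each of these 3, fl/fl EBd2 was far below the other groups, and the log2 rise in KO EBd2 was 2.996 ± 0.31 for Col15a1, 2.89 ± 0.27 for Col17a1 and 2.82 ± 0.22 for Col16a1. Col7a1, which forms the anchoring fibrils of skin, was at 19.6 and 30.5 CPM in KO EBd2 and 7.56 and 9.46 CPM in fl/fl EBd2, with 20.02 and 20.9 CPM in KO ES cells and 16.4 and 14.998 CPM in fl/fl ES cells (log2 1.55 ± 0.21 in EBd2). Col22a1, found at tissue junctions, was at 5.98 and 7.78 CPM in KO EBd2 and 3.64 and 3.81 CPM in fl/fl EBd2, with 3.83 and 4.40 CPM in KO ES cells and 3.28 and 2.98 CPM in fl/fl ES cells (log2 0.89 ± 0.21 in EBd2). Col22a1 was highest in KO EBd2, whereas for Col7a1 the KO EBd2 and KO ES libraries overlapped.

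The 15 other tested chains stayed under 5 CPM in every group. Of them Col11a2, Col24a1, Col6a4, Col10a1, Col20a1 and Col26a1 rose in KO EBd2, and Col4a6, Col6a5, Col8a2, Col9a1, Col13a1, Col14a1, Col23a1, Col25a1 and Col28a1 were not called there. Col20a1 was at 1.57 and 1.70 CPM in KO EBd2 and 0.135 and 0.231 CPM in fl/fl EBd2, and at 1.52 and 1.34 CPM in KO ES cells and 2.29 and 2.25 CPM in fl/fl ES cells, and had the largest called fall of these low chains from ES cells to EBd2 in fl/fl (-3.55 ± 0.47). Its 35 counts in KO EBd2 and 3 in fl/fl EBd2 put the ratio at 8.77 (exact 95% interval for counting error 2.76 to 44.6). The largest called fall among them in KO was that of Col13a1, a transmembrane collagen (-1.84 ± 0.29). The largest called rise among them in fl/fl was that of Col8a2 (2.22 ± 0.64), at 0.294 and 1.70 CPM in KO EBd2 and 1.62 and 2.31 CPM in fl/fl EBd2, with KO EBd2 libraries that differed widely from each other. In KO it was that of Col9a1, with 19 counts in EBd2 and 1 in ES cells, whose ratio was 39.1 and its interval 6.21 to 1624. Col9a1 passed the filter on low counts only through the KO EBd2 libraries, so this rise was favoured in advance.

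**Figure D3:**
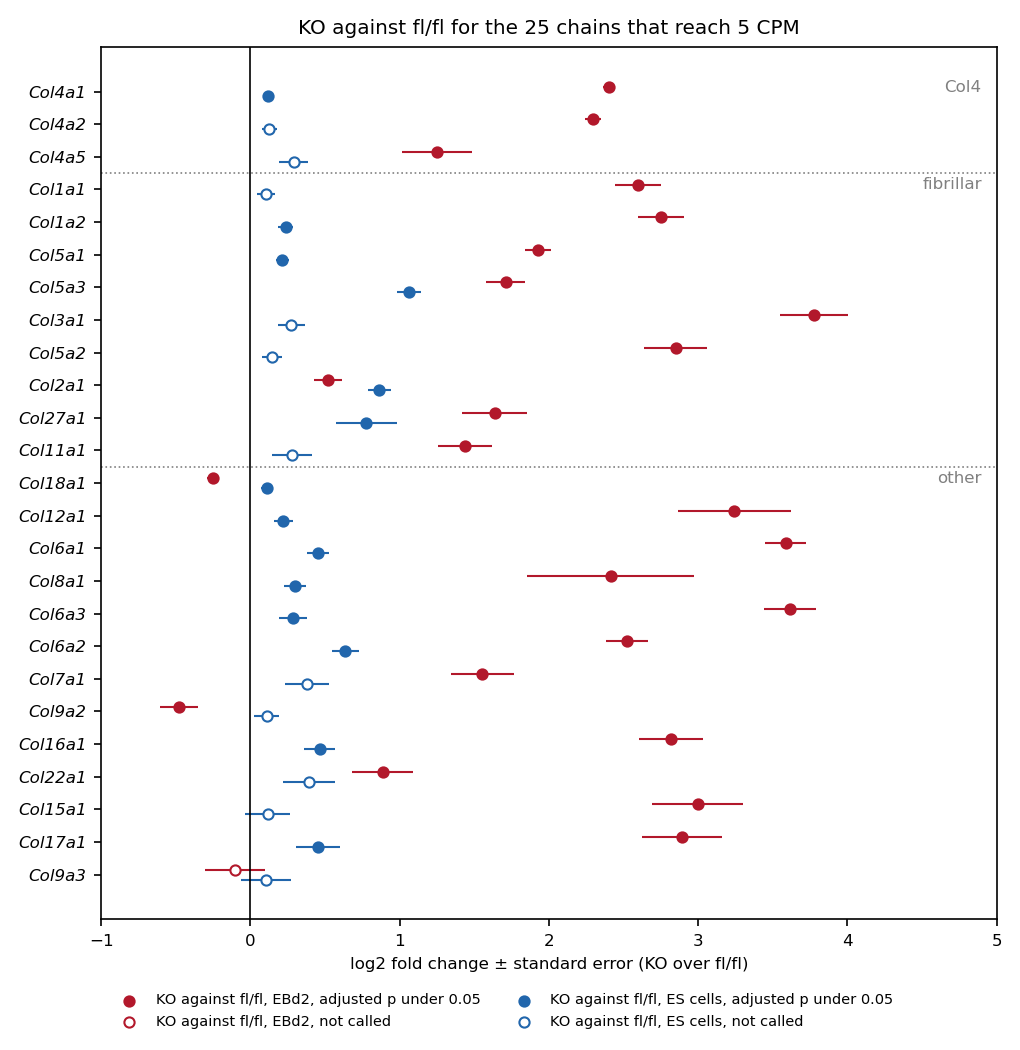
Log2 fold change of KO over fl/fl ± standard error for the 25 chains that reach a mean of 5 CPM in some group, in EBd2 (red, upper of each pair) and in ES cells (blue). Filled points have an adjusted p under 0.05. In EBd2 the points reach 3.77 for Col3a1, and in ES cells they stay below 1.1.

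In ES cells some collagens were modestly higher in KO. Of the 40 chains tested 14 were higher and 0 were lower in KO ES cells by edgeR's test, against 10.9% of all genes higher and 12.8% lower (23.7% in all). At an unadjusted p under 0.05, 1 chain was lower, and DESeq2 called 0 lower. The median log2 fold change was 0.28, against 0.00 over all genes. The clearest were Col5a3 (1.06 ± 0.08), Col2a1 (0.86 ± 0.08), Col6a2 (0.64 ± 0.09) and Col6a1 (0.455 ± 0.07). Col4a1 was higher by 0.12 ± 0.03 and Col1a1 by 0.10 ± 0.06, of which only the first was called (adjusted p = 0.0273 and 0.242), and the call of Col4a1 was lost without any 1 of the 4 ES libraries (adjusted p = 0.0629 to 0.169). The number of calls depended on single libraries, since leaving out each of the 8 in turn gave 4 to 17 chains, the fewest without lot 2 of fl/fl ES cells. Without lot 12 of KO ES cells there were 7 and without lot 1 of fl/fl ES cells 8. Col5a3, Col2a1 and Col6a2 were called under all alternatives run.

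The change from ES cells to day 2 embryoid bodies differed between the genotypes. In KO, 14 chains rose and 12 fell, against 31.7% of all genes higher and 33.1% lower (64.8% in all), with a median of 0.19. In fl/fl, 9 rose and 22 fell, against 28.9% and 30.1% (59.0% in all), with a median of -1.0. Both genotypes had 11 chains that fell and 6 that rose. Col6a2, Col6a3 and Col11a1 rose in KO and fell in fl/fl. The rise of Col6a2 was not called without lot 1 of KO EBd2 (adjusted p = 0.105), nor the fall of Col11a1 without lot 12 of fl/fl EBd2 (0.168), without lot 1 of fl/fl ES cells (0.0787) or with libraries thinned to equal totals (0.0748). These stage comparisons share libraries with the comparisons of genotype, and each chain's own values are given for that reason side by side.

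Among chains with at least 5 CPM in ES cells of both genotypes, the EBd2 level as a percentage of the ES level shows the same pattern. For 8 fibrillar chains the median was 54.2% in KO and 9.82% in fl/fl, and for 10 other chains it was 104% in KO and 14.5% in fl/fl. Col1a1 was at 19.3% in KO and 3.41% in fl/fl. Col3a1 was at 61.8% in KO and 5.42% in fl/fl. The fibrillar chains were thus below their ES level in both genotypes in most cases, and further below it in fl/fl. Col4a1 was at 728% in KO and 149.6% in fl/fl, above its ES level in both.

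The difference between these changes was tested as an interaction, the change in KO minus that in fl/fl. It was positive and called for 24 of 40 chains and negative for 4, against 22.4% of all genes positive and 25.7% negative (48.0% in all), with a median of 1.35. Of the fibrillar chains 9 were positive and 1, Col2a1, was negative. The most positive among the chains that reach 5 CPM were Col3a1 (3.50 ± 0.26), Col6a3 (3.33 ± 0.21), Col6a1 (3.13 ± 0.17) and Col12a1 (3.02 ± 0.39). For Col4a1 and Col4a2 the interaction was 2.28 ± 0.05 and 2.17 ± 0.07. Among lower chains Col20a1, a fibril-associated chain, had 3.74 ± 0.59 and Col8a2, the partner of Col8a1, had -2.56 ± 0.86. The 4 negative chains were Col18a1, Col9a2, Col2a1 and Col8a2. The call of Col2a1 was lost in 11 of 15 alternatives, among them DESeq2 (adjusted p = 0.183) and 6 of the 8 that leave out a library (0.0601 to 0.202).

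**Figure D4:**
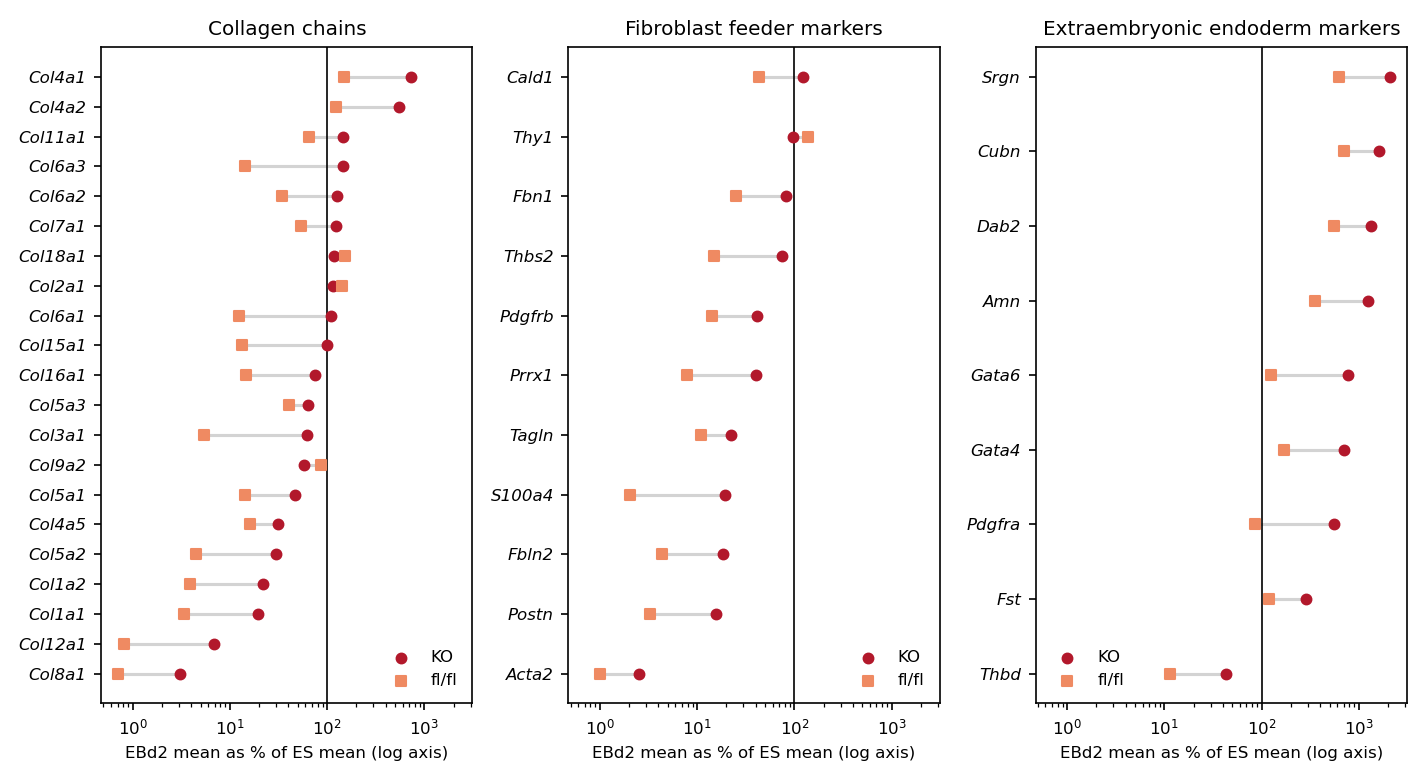
Mean EBd2 level as a percentage of the mean ES level on log axes, in KO (circles) and fl/fl (squares), for genes with at least 5 CPM in ES cells of both genotypes. The line marks 100%. For most collagen chains and fibroblast markers the KO point lies to the right of the fl/fl point and below 100% in fl/fl, and most endoderm markers lie above 100%.

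Genes that make, process and bind collagen moved in the same comparison. Of 20 enzymes and chaperones that modify and fold collagen, 16 rose and 1 fell in KO EBd2, with a median of 0.60, against 30.7% of all genes higher and 31.5% lower. Serpinh1, the collagen chaperone HSP47, was at 285 and 263 CPM in KO EBd2 and 92.3 and 98.3 CPM in fl/fl EBd2 (log2 1.52 ± 0.05, adjusted p = 1.37e-09). P4ha2, a catalytic subunit of prolyl 4-hydroxylase, was at 57.6 and 51.9 CPM in KO EBd2 and 17.1 and 13.04 CPM in fl/fl EBd2 (log2 1.87 ± 0.11). The other such subunit, P4ha1, was at 63.2 and 54.7 CPM in KO EBd2 and 47.0 and 51.5 CPM in fl/fl EBd2 (log2 0.254 ± 0.08), against 173 and 168 CPM in KO ES cells and 197 and 196 CPM in fl/fl ES cells. Plod1, a lysyl hydroxylase, rose by 1.36 ± 0.06. Serpinh1 was highest in KO EBd2 and P4ha1 in ES cells.

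Of 14 genes of procollagen processing and cross-linking, 10 rose and 2 fell in KO EBd2, with a median of 1.13, beside 30.7% and 31.5% of all genes. Bmp1, the procollagen C-proteinase, was at 67.9 and 73.9 CPM in KO EBd2 and 9.18 and 8.77 CPM in fl/fl EBd2 (log2 2.98 ± 0.10). Sparc, a secreted collagen-binding glycoprotein, was at 1124 and 1080.1 CPM in KO EBd2 and 298 and 297 CPM in fl/fl EBd2 (log2 1.89 ± 0.04). Lox, the lysyl oxidase that cross-links fibrils, was at 10.3 and 6.71 CPM in KO EBd2 and 1.89 and 0.692 CPM in fl/fl EBd2, and at 143 and 154 CPM in KO ES cells and 142 and 139 CPM in fl/fl ES cells. It thus had the course of Col1a1 and Col12a1, high in ES cells and lowest in fl/fl EBd2 (KO against fl/fl EBd2 log2 2.75 ± 0.37, adjusted p = 4.78e-05). The exceptions, named after their values were seen, were Tll1 (-0.88 ± 0.20) and Pxdn (-0.43 ± 0.07), a peroxidase that cross-links type IV collagen, and among the modifying genes Mia3 (-0.13 ± 0.04), needed for collagen export.

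Of 8 collagen receptors 7 rose in KO EBd2 (30.7% of all genes did), and Lair1 was not called. Itga1, the integrin chain that binds type IV collagen, was at 25.3 and 27.8 CPM in KO EBd2 and 4.72 and 4.62 CPM in fl/fl EBd2 (log2 2.51 ± 0.13). Ddr2, a receptor tyrosine kinase for fibrillar collagen, was at 9.504 and 7.87 CPM in KO EBd2 and 1.75 and 1.27 CPM in fl/fl EBd2 (log2 2.53 ± 0.21). Of 8 partners of type IV collagen in basement membranes 7 rose and 1, Nid2, fell. Lama1 was at 439 and 412 CPM in KO EBd2 and 95.5 and 119 CPM in fl/fl EBd2 (log2 1.98 ± 0.07), Lamb1 at 596 and 582 CPM in KO EBd2 and 244 and 253 CPM in fl/fl EBd2 (log2 1.24 ± 0.04), and Nid1 at 146 and 139 CPM in KO EBd2 and 43.9 and 44.2 CPM in fl/fl EBd2 (log2 1.69 ± 0.06). Laminin 1 chains and nidogen are laid down beside type IV collagen in the earliest basement membranes of the embryo.

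Markers of cell types that make collagen moved with these results. Of 20 fibroblast feeder markers 18 were tested, and 14 rose in KO EBd2 and 4 were not called, with a median of 1.76 (30.7% of all genes rose there and 31.5% fell). Their summed level was 479 to 481 CPM in KO EBd2, 138 in fl/fl EBd2, 860.1 to 889.9 in KO ES cells and 665 to 684 in fl/fl ES cells. Like that of the fibrillar chains, this sum was highest in ES cells and lowest in fl/fl EBd2. Not every member had this course. Cald1, with means of 296 CPM in KO EBd2 and 76.2 in fl/fl EBd2, held most of the EBd2 sums. Its EBd2 level was 122% of its ES level in KO and 43.5% in fl/fl. Thy1 was at 98.0% in KO and 139% in fl/fl. Prrx1, a mesenchymal transcription factor, was at 14.5 and 12.6 CPM in KO EBd2 and 1.75 and 1.96 CPM in fl/fl EBd2, and at 32.5 and 34.1 CPM in KO ES cells and 23.5 and 23.9 CPM in fl/fl ES cells. Postn, a matricellular protein of fibroblasts, was at 3.14 and 2.15 CPM in KO EBd2 and 0.270 and 0.692 CPM in fl/fl EBd2, and at 16.5 and 17.1 CPM in KO ES cells and 15.05 and 14.1 CPM in fl/fl ES cells. Levels within the list differed widely. Lum and Meox2 were under 0.5 CPM in all 8 libraries, Dcn was at most 1.34 CPM and Twist2 at most 1.56 CPM. In contrast, Fbln2 had means of 282 CPM in KO ES cells and 239 in fl/fl ES cells. In the same 2 groups Tagln had means of 113 and 69.8 CPM and Acta2 of 64.6 and 54.9 CPM. In EBd2 the 11 fibroblast markers with 5 CPM in ES cells kept a median of 40.8% of their ES level in KO and 11.1% in fl/fl.

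Of 20 extraembryonic endoderm markers 19 were tested, and 18 rose and 1 fell in KO EBd2, with 62.2% of all genes called there and 30.7% higher. Their summed level was 1585 to 1598 CPM in KO EBd2, 611 to 660.0 in fl/fl EBd2, 118 to 119 in KO ES cells and 126 to 128 in fl/fl ES cells. Gata6, a transcription factor of primitive endoderm, was at 42.1 and 40.1 CPM in KO EBd2 and 6.61 and 7.62 CPM in fl/fl EBd2, and at 5.17 and 5.33 CPM in KO ES cells and 5.79 and 5.72 CPM in fl/fl ES cells. Sox17, which marks endoderm, was at 35.3 and 33.4 CPM in KO EBd2 and 2.83 and 2.88 CPM in fl/fl EBd2, and at 1.20 and 1.07 CPM in KO ES cells and 1.98 and 2.39 CPM in fl/fl ES cells. Their rises in KO EBd2 were 2.52 ± 0.10 for Gata6 and 3.58 ± 0.14 for Sox17, and Col4a1 was highest in the same 2 libraries. Afp, a visceral endoderm gene, stayed under 1 CPM in all libraries, and Apoa1, named after its value was seen as the one that fell, was at 0.980 and 1.16 CPM in KO EBd2 and 2.56 and 2.88 CPM in fl/fl EBd2. In KO ES cells 1 of the 19 endoderm markers was higher and 3 were lower, a share called near the 23.7% of all genes. Of the 18 fibroblast markers 7 were higher there, as were 10.9% of all genes.

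Other cell types could also hold some chains. Of 10 mesoderm markers 7 were tested, and 4 rose and 0 fell in KO EBd2, with a median of 2.08. Of all genes 30.7% were higher there and 31.5% lower. The share of these markers called was near the 62.2% of all genes called in either direction. Their summed level was 167 to 172 CPM in KO EBd2, 26.2 in fl/fl EBd2, 19.9 to 21.9 in KO ES cells and 19.98 to 20.6 in fl/fl ES cells. Of 8 epithelial markers (Krt5, Krt8, Krt14, Krt17, Krt18, Trp63, Itga6 and Itgb4) 7 were tested. In KO EBd2 6 rose and 1, Itga6, fell, against 30.7% of all genes higher and 31.5% lower. Their summed level was 822 to 832 CPM in KO EBd2, 388 to 393 in fl/fl EBd2, 452 to 472 in KO ES cells and 374 to 379 in fl/fl ES cells. Most of the sum in KO EBd2 came from Krt8, Krt18 and Itga6, with means of 347, 244 and 139 CPM. The part of fibroblasts, endoderm, mesoderm and epithelium in the collagen values was not tested.

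**Figure D5:**
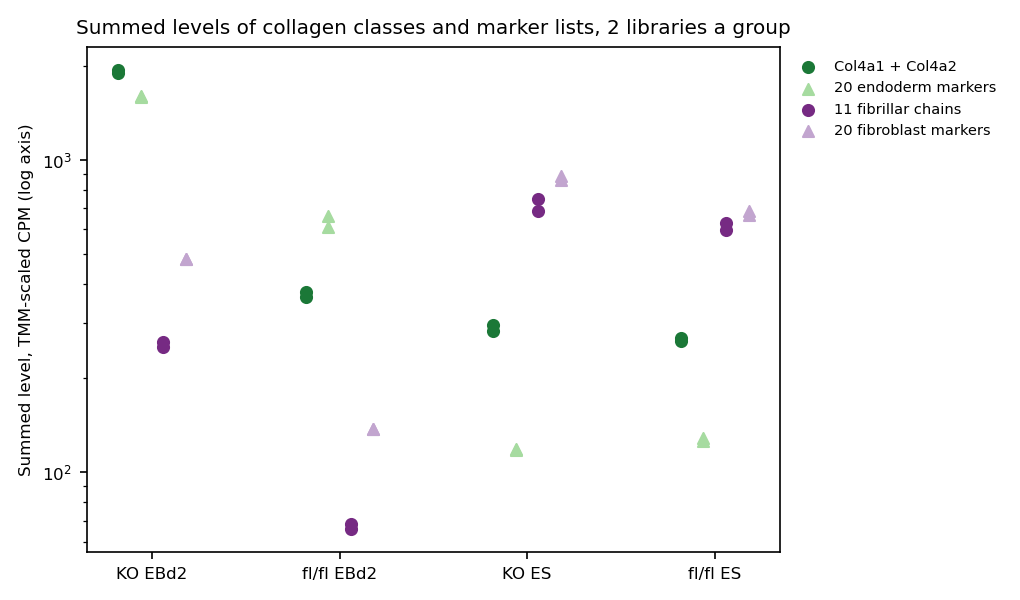
Summed levels in TMM-scaled CPM on a log axis for Col4a1 plus Col4a2, the 11 fibrillar chains, 20 extraembryonic endoderm markers and 20 fibroblast markers, with 1 point for each of the 2 libraries of a group. The fibrillar and fibroblast points are highest in ES cells and lowest in fl/fl EBd2, and the type IV and endoderm points are highest in KO EBd2.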

How the data were processed

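The authors deposited a table of raw counts for each gene symbol and library, not normalized. The submitters' processing notes name Trim Galore 0.6.7, GRCm38 and mm10; aligner, counter, annotation and strand setting: not given in the sources used here. Groups follow the sample titles. Collagen members, classes and gene lists were chosen with earlier results of these data known.

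The analysis of the counts used edgeR 4.0.16 in R 4.3.3 (filterByExpr by group, 16542 genes left, TMM scaling, 1 model of 4 group means on all 8 libraries, glmQLFit and glmQLFTest, two-sided, Benjamini-Hochberg over all genes, threshold 0.05). The variation between libraries beyond counting error, which may be technical only, had a common coefficient of 3.40% in edgeR, on 4 residual degrees of freedom. Chains reaching a mean of 5 CPM in a group are described singly, with trimer partners and, of lower chains called, the largest rise and fall; in each other list those named are at most 4 called members, by smallest p in a contrast, and a few set ones. The procedure was tested on simulated counts with the same variation for every gene, for KO against fl/fl EBd2. It called 54% of the genes raised 1.5-fold, 78% at 2-fold and 96% at 4-fold. Of genes lowered to 0.25 it called 88.6%, and of 16342 unchanged genes it called 12. Changes under 2-fold were thus often missed. Exon lengths are union exons of GENCODE vM21. Alternatives, with DESeq2 1.42.0 among them, are in the closing section. Groups compared in pairs share only lot 1, so lots do not pair them. In the interaction, KO EBd2 and fl/fl ES cells (lots 1 and 2) stand against KO ES cells and fl/fl EBd2 (lots 1 and 12). A count of 3 over a group was the floor.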

Additional observations from a re-analysis of the deposited data

Results flagged for a closer look

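For 23 of the 25 chains that reach 5 CPM, the change from ES cells to EBd2 differed between KO and fl/fl by the test of the interaction (edgeR's quasi-likelihood test, adjusted p under 0.05), and 48.0% of all genes were called by it. Values are the log2 change in KO minus that in fl/fl. Among basement membrane chains it was 2.28 for Col4a1, 2.17 for Col4a2 and 0.96 for Col4a5. Among fibrillar chains it was 2.49 for Col1a1, 2.51 for Col1a2, 3.50 for Col3a1, 1.71 for Col5a1, 2.70 for Col5a2, 0.65 for Col5a3, 1.16 for Col11a1, 0.86 for Col27a1 and -0.34 for Col2a1. Among other chains it was 3.13 for Col6a1, 1.89 for Col6a2, 3.33 for Col6a3, 1.17 for Col7a1, 2.12 for Col8a1, 3.02 for Col12a1, 2.88 for Col15a1, 2.35 for Col16a1, 2.44 for Col17a1, -0.59 for Col9a2 and -0.36 for Col18a1. Of these 23 differences 20 were positive. Of 15 alternatives, the call was lost in 11 for Col2a1, 7 for Col27a1, 4 for Col4a5, 2 for Col5a3 and 1 each for Col8a1 and Col9a2, and for the other 17 chains in none.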

How the results depend on the processing

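Each comparison was rerun with median-ratio size factors, with library sizes only, with no filter and a stricter filter on low counts, with DESeq2, on the 4 libraries compared, with all libraries thinned to the smallest total, with lot as a replicate block, and without each library in turn. Among the 25 chains in 5 comparisons, 1822 reruns kept direction and side of the threshold, 106 lost a call, 34 gained one and 13 turned direction, none of them a chain called at first. With library sizes only, the median of all genes moved to 0.07 in ES cells, 0.23 in EBd2, 0.14 for EBd2 against ES cells in KO and 0.15 for the interaction, and the share of calls that were higher was 72.1% (46.0% with TMM), 67.9% (49.3%), 61.9% (48.95%) and 62.6% (46.6%) in these 4; 0 chains were then lower in KO EBd2, against 2. Chains higher in KO ES cells numbered 9 when thinned, 4 with lot as a block and 4 to 17 without each library, against 14, and genes called there 2091, 2236 and 1909 to 3958, against 3926. The block left 1 chain with a negative interaction, against 4 (2 to 4 without each library), and 26 chains higher in KO EBd2. Groups compared in pairs share only lot 1, but KO EBd2 and fl/fl ES cells share lot 2. KO ES cells and fl/fl EBd2 share lot 12, so a difference between lots 2 and 12 would fall along the interaction. Among the 25 chains, the block lost the interaction call of Col2a1, Col4a5, Col5a3, Col9a2 and Col27a1. Chains that rose in fl/fl EBd2 numbered 5 to 9 without each library, against 9. Directions turned, in log2, for Col9a3 in EBd2 (0.122) and Col15a1 from ES cells to EBd2 in KO (0.128) with library sizes only, and for Col9a2 from ES cells to EBd2 in fl/fl (0.00053) when thinned. With the block they turned for Col1a1 (-0.0566) and Col9a3 (-0.0148) in ES cells, and for Col9a3 in EBd2 (0.0230) and its interaction (0.0379). Without each library in turn, the KO minus fl/fl difference in ES cells ranged over -0.0331 to 0.274 for Col9a3 and -0.0688 to 0.323 for Col15a1, and the change from ES cells to EBd2 in KO over -0.0659 to 0.568 for Col7a1, -0.0657 to 0.0156 for Col15a1 and -0.00115 to 0.25 for Col17a1. The cause of these changes was not tested. Depth limits chains under about 1 CPM in EBd2, where 1 count is 0.0894 to 0.135 CPM.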
